A study of Mus musculus with 15 samples.

Results

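The question addressed was whether 2 leukaemia alleles, when carried together with the receptor allele introduced first, changed each transcript by the sum of what each allele did alone. Members were the 13123 genes of 52328 table entries that passed the expression filter, read in 12 of the 15 mRNA libraries of a mouse line that the labels name HoxB (cell type given as Blood). There were 4 groups of 3 libraries. EMPTY cells had control vectors, RUNX1-ETO_ONLY cells carried the fusion RUNX1-ETO, CSF3R_ONLY cells carried the receptor with the change T618I, and CSF3R_FIRST cells carried both, with the receptor named first. The remaining group, RUNX1-ETO_FIRST, carried the same pair in the other order and is compared only to test the order, although its libraries also entered the filter, scaling and spread of the shared fit. All are of the same line. The sources used here do not say how many clones or cultures a group came from, nor how long the alleles were carried, so p-values measure the spread between these libraries, which may be technical.

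CSF3R is the receptor for granulocyte colony-stimulating factor, the cytokine that drives neutrophil production. It signals through JAK kinases to STAT3 and STAT5 and through the ERK cascade, and the T618I change leaves it active without ligand. RUNX1-ETO joins the DNA-binding part of the blood transcription factor RUNX1 to the corepressor ETO (the product of RUNX1T1), and it is known for blocking myeloid maturation.

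Additivity was tested on the log2 scale as CSF3R_FIRST minus RUNX1-ETO_ONLY minus CSF3R_ONLY plus EMPTY, called the interaction here. A gene above 0 was higher in the double than the summed log2 effects, that is, higher than the RUNX1-ETO_ONLY level times the CSF3R_ONLY level divided by the EMPTY level. A gene counted as called when its adjusted p from edgeR's quasi-likelihood test was under 0.05. Levels are in CPM, read counts brought to one shared library total, and are compared between groups for 1 gene, not between genes.

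Total counts were 17007437 to 18178292 per library, and 16262 to 17242 genes had a count. All 7 haematopoietic markers were above 1 CPM in every library, and of 20 markers of other cell types 8 were at 0 in all, among them Col1a2 (fibroblast), Krt8 (epithelial), Kdr (endothelial), Pax5 (B cell) and Cd3e (T cell). Others were not. Pecam1, endothelial but also made by blood cells, ran from 271 to 811 CPM, Pdgfrb (stromal) from 20.5 to 92.8, Cdh1 (epithelial) from 0.209 to 12.4 and Lck (T cell) from 1.43 to 4.71. In the group order EMPTY, RUNX1-ETO_ONLY, CSF3R_ONLY and CSF3R_FIRST, the summed endothelial list ran from 271 to 292, 526 to 566, 327 to 336 and 790 to 811 CPM. The stromal list ran from 20.5 to 30.7, 84.2 to 92.8, 30.7 to 33.3 and 64.8 to 75.4, and the epithelial list from 0.779 to 1.05, 0.210 to 0.510, 11.4 to 12.4 and 7.02 to 8.97. These sums moved with the groups, and their part in the results was not tested. Replicate 3 of EMPTY, of RUNX1-ETO_ONLY and of CSF3R_FIRST stood apart from its group by being low in long transcripts. The correlation across 8627 genes between deviation from the group mean and log2 transcript length was −0.708, −0.680 and −0.575 in these 3 libraries, against −0.121 to 0.112 in CSF3R_ONLY. The interaction itself correlated with log2 transcript length at −0.27 over these genes, and at −0.089 without the 3 libraries. Genes within a library are not replicates, so these values carry no p.

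The transcripts Runx1t1 and Runx1 followed the labels. Csf3r did not separate the groups named for the receptor, so it does not check that allele in the double. Runx1t1 had no counts in any EMPTY or CSF3R_ONLY library, 439, 513.1 and 391.4 CPM in RUNX1-ETO_ONLY and 811.6, 764 and 558.6 CPM in CSF3R_FIRST. It was 1.59-fold higher in the double than with the fusion alone (log2 0.67, SE 0.173, adjusted p = 0.00765). Runx1 averaged 90.2, 547, 128 and 747 CPM in the order control, fusion, receptor and double (EMPTY, RUNX1-ETO_ONLY, CSF3R_ONLY, CSF3R_FIRST), which is kept for all group means below, and its interaction was not past the test (log2 −0.05, SE 0.134, adjusted p = 0.821). Csf3r read 421.7, 464.6 and 372.5 CPM in EMPTY, 507.2, 536.2 and 530.1 in RUNX1-ETO_ONLY, 616.7, 625.9 and 621.8 in CSF3R_ONLY, and 430, 396.2 and 365.8 in CSF3R_FIRST. Each allele alone was above EMPTY, and the double lay within the EMPTY range or just under it. The interaction of Csf3r was −0.97 (SE 0.119, adjusted p = 2.99e-05). No source used here names the species of the introduced sequences, so these counts may hold or miss introduced transcripts.

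Of the 13123 genes, 3004 (22.9%) departed from the sum of the single effects. The double was above the sum in 1368 genes (10.4%) and below it in 1636 (12.5%). A departure of at least 2-fold was reached by 1176 genes (8.96%), 563 above (4.29%) and 613 below (4.67%). In 47 of the 3004 (1.56%) a group had no counts, and there the size of the interaction is not given. The median interaction of all genes was −0.04, and the middle of the distribution, from the 25th to the 75th percentile, ran from −0.37 to 0.32. With library sizes alone in place of trimmed-mean scaling the median moved to −0.20, and the split became 1003 above and 2725 below, so the balance of directions depends on the scaling. Without the 3 libraries low in long transcripts it was 1744 above and 1643 below, and with only the 4 groups in the fit 1419 above and 1357 below, so it also depends on the libraries fitted. No called gene changed sign in any of the refits run.

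A log2 sum is one definition of no interaction, and a sum of CPM differences is another. The CPM difference had the same sign in 1321 of the 1368 genes above the sum (96.6%) and in 1499 of the 1636 below it (91.6%).

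**Figure D1:**
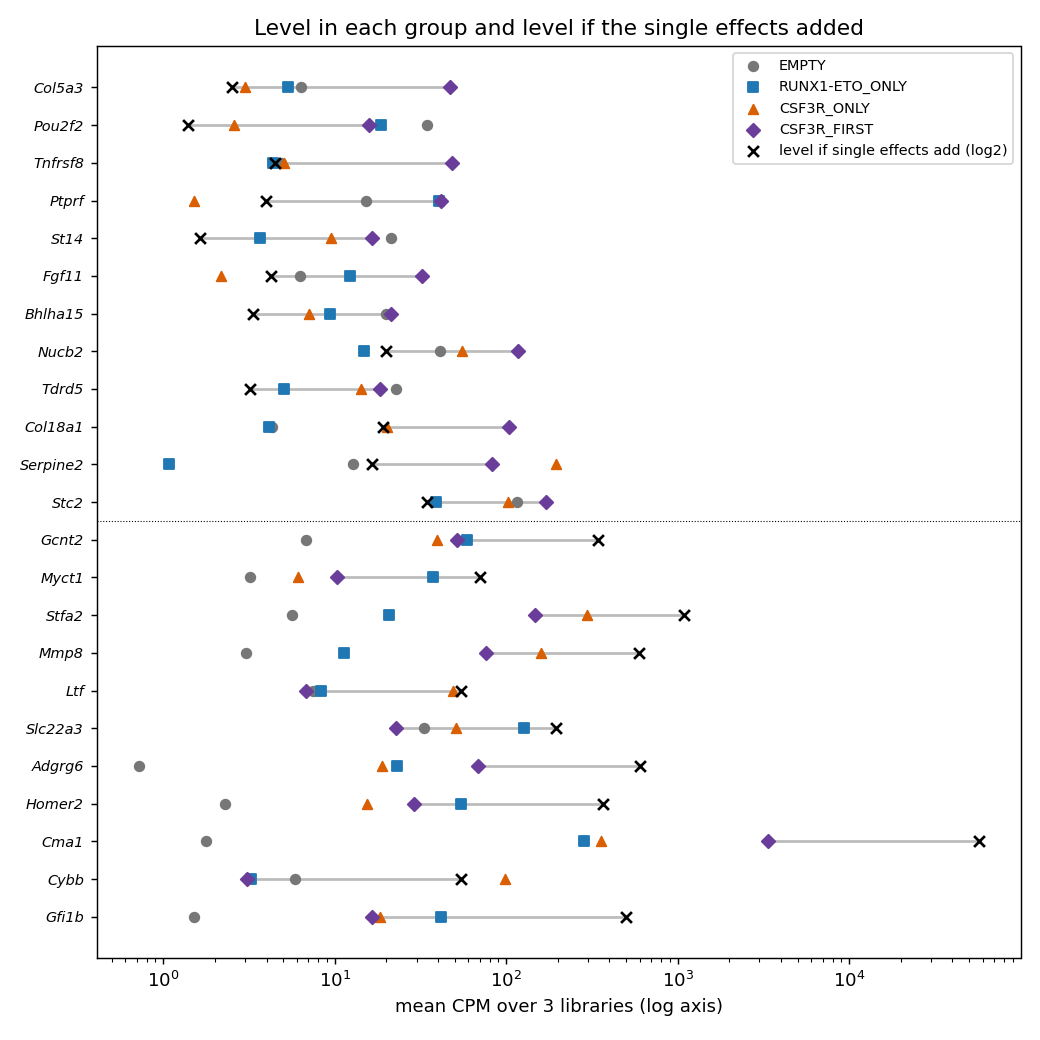
Mean CPM of each of the 4 groups (symbols, n = 3 libraries, log axis) and the level the double would have if the log2 effects added (black cross), for the 12 genes furthest above the sum (upper block) and 11 of the 12 furthest below (lower block). The grey line joins the cross to the CSF3R_FIRST level, which lies to its right in the upper block and to its left in the lower.

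The largest departures above the sum included genes that neither allele raised alone. Col5a3 (chromosome 9, 20770050 to 20815067, minus strand, mm10), a fibrillar collagen chain, read 4.404, 7.218 and 7.312 CPM in EMPTY, 5.3, 6.572 and 4.032 in RUNX1-ETO_ONLY, 2.974, 2.951 and 3.055 in CSF3R_ONLY, and 49.48, 45.73 and 45.57 in CSF3R_FIRST. Every double library was higher than any library of the other groups, and the interaction was 4.21 (SE 0.264, adjusted p = 3.35e-08). Tnfrsf8 (chromosome 4, 145267137 to 145315164, minus strand), the receptor CD30 of the tumour necrosis factor family, read 5.34, 5.053 and 4.195 CPM in EMPTY, 4.281, 3.646 and 5.08 in RUNX1-ETO_ONLY and 4.898, 5.149 and 5.13 in CSF3R_ONLY. In CSF3R_FIRST it read 46.96, 48.98 and 49.63 CPM, so the 3 other groups overlapped one another and the double stood alone. Its interaction was 3.43 (SE 0.167, adjusted p = 3.96e-09).

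A second kind of gene above the sum had been lowered by 1 or both alleles, and the double held more than the 2 falls would leave. St14, the membrane protease matriptase, averaged 21.2 CPM in controls, 3.66 with the fusion and 9.44 with the receptor, and the sum would leave 1.63 CPM. The double held 15.57, 19.65 and 14.12 CPM, which overlapped the EMPTY libraries at 24.39, 23.76 and 15.52. Kit, the stem cell factor receptor, behaved alike at a higher level, with 333.3, 348.2 and 312.2 CPM in EMPTY, 192, 186.2 and 181.9 in RUNX1-ETO_ONLY, 77.61, 90.72 and 90.09 in CSF3R_ONLY and 236, 204.2 and 215.8 in CSF3R_FIRST. The sum for Kit would be 48.6 CPM, and its interaction was 2.17 (SE 0.113, adjusted p = 7.14e-09). Bhlha15, a transcription factor of secretory cells, averaged 19.9, 9.33, 7.08 and 21.2 CPM in the same group order, so the double was not shown to differ from EMPTY (adjusted p = 0.60).

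Pou2f2 (chromosome 7, 25087344 to 25179726, minus strand), the octamer factor OCT2, and Ptprf, a receptor tyrosine phosphatase, were low with the receptor alone and higher in the double. In the double Pou2f2 still lay under every EMPTY library. Pou2f2 read 30.33, 30.04 and 42.73 CPM in EMPTY, 16.56, 20.08 and 19.01 in RUNX1-ETO_ONLY, 2.391, 3.067 and 2.306 in CSF3R_ONLY and 17.98, 14.04 and 15.75 in CSF3R_FIRST. The double overlapped the fusion-only libraries and was 6.14-fold above the receptor-only level, with an interaction of 3.51 (SE 0.237). Ptprf averaged 15.3, 40.3, 1.51 and 41.6 CPM, with an interaction of 3.39. Further genes above the sum were Fgf11, Nucb2, Tdrd5, Stc2 and Col18a1, at 2.93, 2.54, 2.53, 2.31 and 2.45. Stc2 encodes the secreted glycoprotein stanniocalcin 2, and Col18a1 the basement membrane collagen from which endostatin is cut. Serpine2, a serine protease inhibitor, was above the log2 sum (2.32) but below the CPM sum by 99.8 CPM, since it averaged 194 CPM with the receptor alone and 82.5 in the double.

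Among genes below the sum, Gfi1b had the largest departure of those with at least 10 counts in every library. Gfi1b (chromosome 2, 28609450 to 28621982, minus strand) is a transcriptional repressor of erythroid and megakaryocyte development. It read 1.376, 1.499 and 1.678 CPM in EMPTY, 40.87, 40.97 and 42.63 in RUNX1-ETO_ONLY, 19.01, 17.53 and 18.33 in CSF3R_ONLY and 15.63, 14.22 and 19.63 in CSF3R_FIRST. Both alleles raised it alone, and the double overlapped the receptor-only libraries rather than the 500 CPM of the sum. The interaction was −4.92 (SE 0.174, adjusted p = 2.51e-10).

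Cybb (chromosome X, 9435252 to 9487771, minus strand) encodes the catalytic subunit of the phagocyte NADPH oxidase. It read 7.873, 5.33 and 4.495 CPM in EMPTY, 3.414, 3.029 and 3.352 in RUNX1-ETO_ONLY, 101.8, 95.99 and 98.85 in CSF3R_ONLY and 3.307, 2.833 and 3.03 in CSF3R_FIRST. The rise seen with the receptor alone was absent from the double, whose libraries overlapped the fusion-only range. The interaction was −4.16 (SE 0.244, adjusted p = 2.13e-08). Ltf, the granule protein lactoferrin, was likewise high with the receptor alone and low in the double, at 7.51, 8.36, 49.0 and 6.83 CPM (interaction −2.99).

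Slc22a3, an organic cation transporter, was higher than EMPTY with the fusion alone and, by less, with the receptor alone. It read 35.01, 35.2 and 28.95 CPM in EMPTY, 129.6, 130 and 119.9 in RUNX1-ETO_ONLY, 48.34, 51.09 and 53.37 in CSF3R_ONLY and 22.61, 23.43 and 22.18 in CSF3R_FIRST. The double was below all 3 other groups, with an interaction of −3.10 (SE 0.119, adjusted p = 4.35e-10). Homer2, Myct1 and Gcnt2 had interactions of −3.65, −2.77 and −2.71. Mmp8, a neutrophil collagenase, and Stfa2, a stefin of neutrophils, were raised mainly by the receptor and stayed part of the way up, at 159 and 295 CPM with the receptor alone and 76.1 and 147 in the double.

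Being below the log2 sum did not mean being low. Cma1, a mast cell chymase, averaged 1.79, 283 and 359 CPM in EMPTY and the single groups, and read 3076, 3317 and 3740 CPM in the double. The log2 sum would ask for 56819 CPM, so the interaction was −4.08, while the double exceeded the CPM sum by 2738. Adgrg6, an adhesion receptor, likewise had 68.4 CPM in the double against 23.1 and 18.8 with single alleles, and exceeded the CPM sum by 27.2. Where EMPTY is near 0 the log2 sum is steep, and genes under 10 counts in some library are given as levels only. Of these, Cd55, a complement regulator, averaged 0.0741, 44.5, 21.4 and 557 CPM, F2r, the thrombin receptor, 0.591, 110, 28.5 and 457, and Slco2b1, an organic anion transporter, 0.0768, 12.2, 19.8 and 201. Insm1, a zinc finger repressor, went the other way and was above the log2 sum. Its low counts were in CSF3R_ONLY (9, 9 and 18), and it averaged 4.24, 54.3, 0.694 and 31.9 CPM.

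The 250 bases upstream of the RefSeq start (build GRCm38.p6) are shown for Gfi1b, Cybb and Pou2f2, each of which had the double near 1 single group. RefSeq starts of Cybb and Pou2f2 lie inside the gene bounds given above. Capitals mark matches, on either strand, to TGTGGT, the core that RUNX1 and its fusion bind, and to TTCNNNGAA or the same ends with 1 more base between them, the spacings known for STAT dimers. The marked matches do not overlap. The runs are at chr2:28621983-28622232, chrX:9469325-9469574 and chr7:25132461-25132710, all on the minus strand.
Gfi1b: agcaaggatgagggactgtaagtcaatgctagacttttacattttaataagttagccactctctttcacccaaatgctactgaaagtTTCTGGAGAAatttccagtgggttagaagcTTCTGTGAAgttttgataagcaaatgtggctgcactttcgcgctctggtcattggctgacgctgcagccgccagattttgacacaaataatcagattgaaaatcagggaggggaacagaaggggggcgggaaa
Cybb: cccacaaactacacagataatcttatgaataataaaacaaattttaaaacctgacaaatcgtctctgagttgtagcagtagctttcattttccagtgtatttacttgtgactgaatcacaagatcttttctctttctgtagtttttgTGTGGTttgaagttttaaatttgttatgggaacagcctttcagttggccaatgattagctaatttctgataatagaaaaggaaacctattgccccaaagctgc
Pou2f2: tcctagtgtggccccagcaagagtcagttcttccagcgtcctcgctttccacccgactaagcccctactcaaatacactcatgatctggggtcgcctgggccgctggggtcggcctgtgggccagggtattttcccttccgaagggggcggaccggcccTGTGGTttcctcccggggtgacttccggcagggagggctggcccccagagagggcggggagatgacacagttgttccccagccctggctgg
Gfi1b held 1 match to each STAT spacing and none to TGTGGT, and Cybb and Pou2f2 held 1 TGTGGT each. Of the tested genes, 9785 had such an upstream window. TGTGGT was in 10.9% of them, in 11.1% of genes above the sum and in 10.4% of genes below it, and TTCNNNGAA in 6.04%, 5.04% and 6.49%. The spacing with 1 more base was in 4.57%, 3.61% and 4.87%. In genes nearer the fusion and genes nearer the receptor, TGTGGT was in 13.4% and 13.2%, TTCNNNGAA in 7.92% and 7.06%, and the longer spacing in 3.72% and 5.08%. A match describes the letters alone.

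Genes outside the range of both single groups showed what the pair gave beyond either allele. The double was above both in 1736 genes (13.2%) and below both in 1232 (9.39%). Furin (chromosome 7, 80388585 to 80405436, minus strand), a proprotein convertase, read 109.6, 110.5 and 83.96 CPM in EMPTY, 239.3, 241.9 and 213.4 in RUNX1-ETO_ONLY, 428.1, 440.1 and 443.8 in CSF3R_ONLY and 4122, 3777 and 3213 in CSF3R_FIRST. The double was 8.47-fold above the receptor-only level with no overlap, and its interaction was 1.89 (SE 0.156, adjusted p = 5.38e-07). Lama5, a laminin chain, averaged 6.65, 10.7, 21.3 and 167 CPM. Tpsg1, a transmembrane tryptase, averaged 1.41, 30.6, 13.9 and 427 CPM, and here the log2 effects were not shown to depart from a sum (interaction 0.50, SE 0.188, adjusted p = 0.0689).

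Below both, Far2, a fatty acyl reductase, read 169.3, 168.2 and 151.1 CPM in EMPTY, 75.53, 68.44 and 71.95 in RUNX1-ETO_ONLY, 229.5, 216.7 and 231.4 in CSF3R_ONLY and 20.14, 15.81 and 17.39 in CSF3R_FIRST. Its interaction was −2.49 (SE 0.120, adjusted p = 3.96e-09), and the double had no overlap with any other group. Prkd3, a protein kinase D, averaged 38.3, 31.4, 30.4 and 6.66 CPM, and Slco3a1, an organic anion transporter, 167, 129, 122 and 31.5 CPM. The single groups of both lay far nearer EMPTY than the double did. Nrgn, Aff3 and Fbln1 were also below both, at 2.06, 3.42 and 2.33 CPM in the double.

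**Figure D2:**
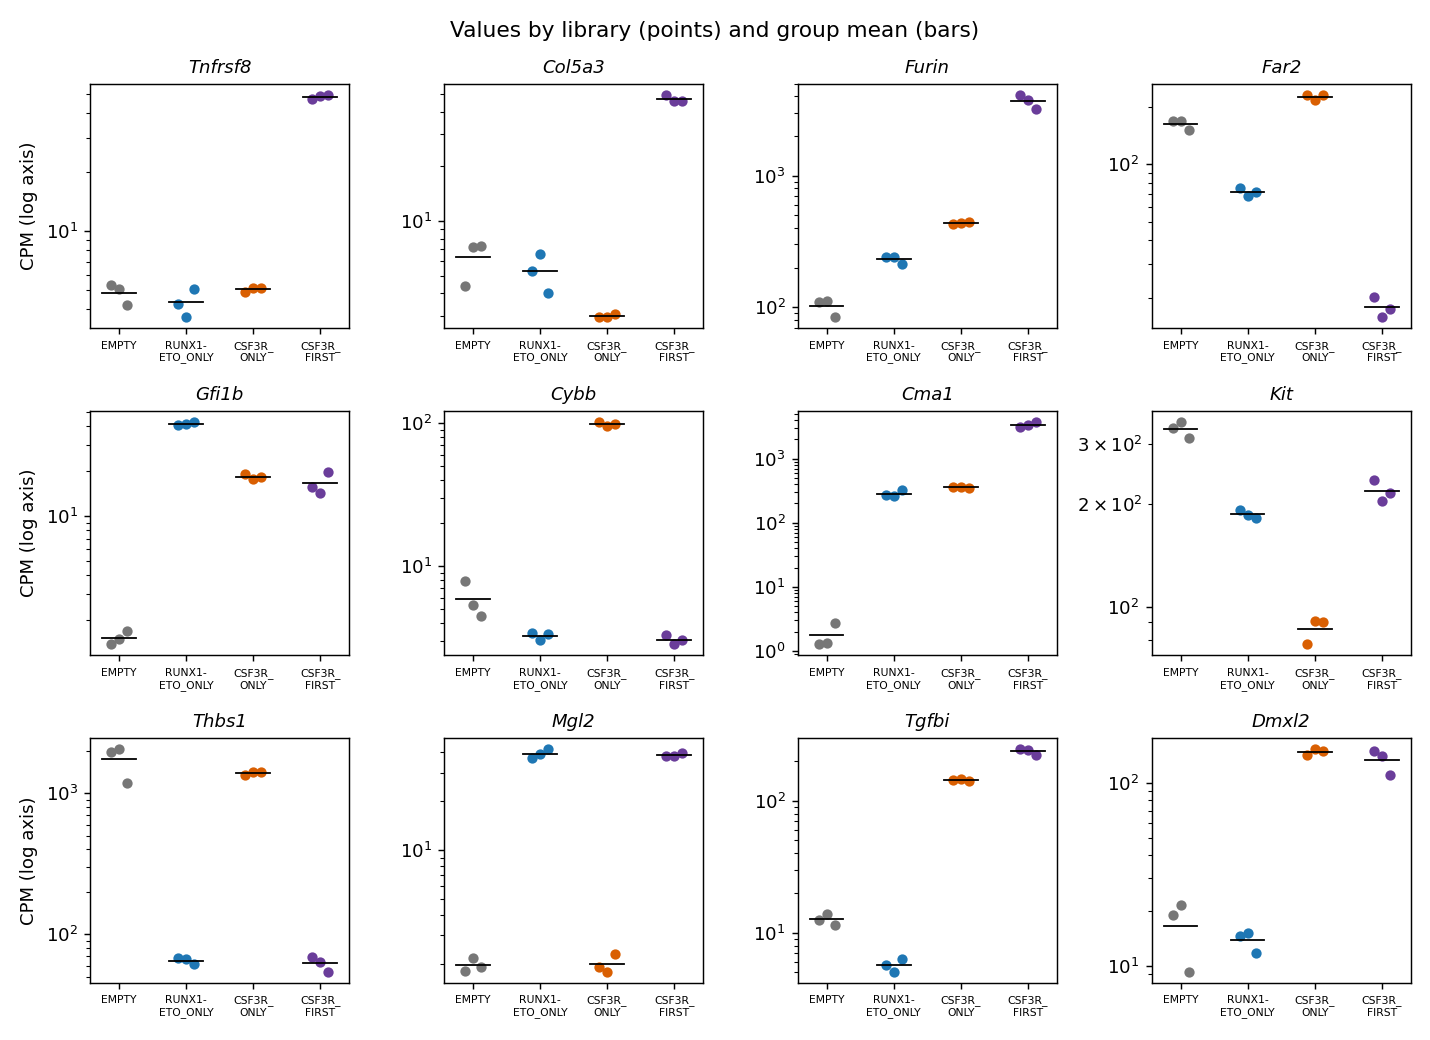
CPM of 12 genes in each library (points, log axes) with the group mean (short line), for EMPTY, RUNX1-ETO_ONLY, CSF3R_ONLY and CSF3R_FIRST. Tnfrsf8, Col5a3, Furin and Far2 have the double outside all other groups, Cybb, Thbs1 and Mgl2 have it at the fusion-only level, and Dmxl2 at the receptor-only level.

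Which single group the double lay nearer was read in the 2351 genes at least 2-fold different between the single groups (17.9% of those tested). With additive effects, a gene that only 1 allele changes lies on that allele's side. A side alone thus does not show that an allele overrode the other. The level of the double was compared with the midpoint of the single groups. It lay nearer the fusion in 815 genes (34.7%), nearer the receptor in 613 (26.1%), and was called on neither side in 923 (39.3%). On a scale with 0 at CSF3R_ONLY and 1 at RUNX1-ETO_ONLY, the median position was 0.56, and the 25th and 75th percentiles were 0.19 and 0.91. Neither side held most of the genes.

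The side differed with direction. Of 1012 genes higher in RUNX1-ETO_ONLY, 453 (44.8%) lay on the fusion side, 133 (13.1%) on the receptor side and 426 (42.1%) on neither. Of 1339 genes higher in CSF3R_ONLY, 362 (27%) lay on the fusion side, 480 (35.8%) on the receptor side and 497 (37.1%) on neither. In both sets the more frequent side was that of the higher group. How much of this split additive effects alone would give was not tested. Of the 815 fusion-side genes, 238 were past the fusion-only level, 403 were not past the test against it, and 174 lay between the single groups. For the 613 receptor-side genes the counts were 198, 288 and 127.

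**Figure D3:**
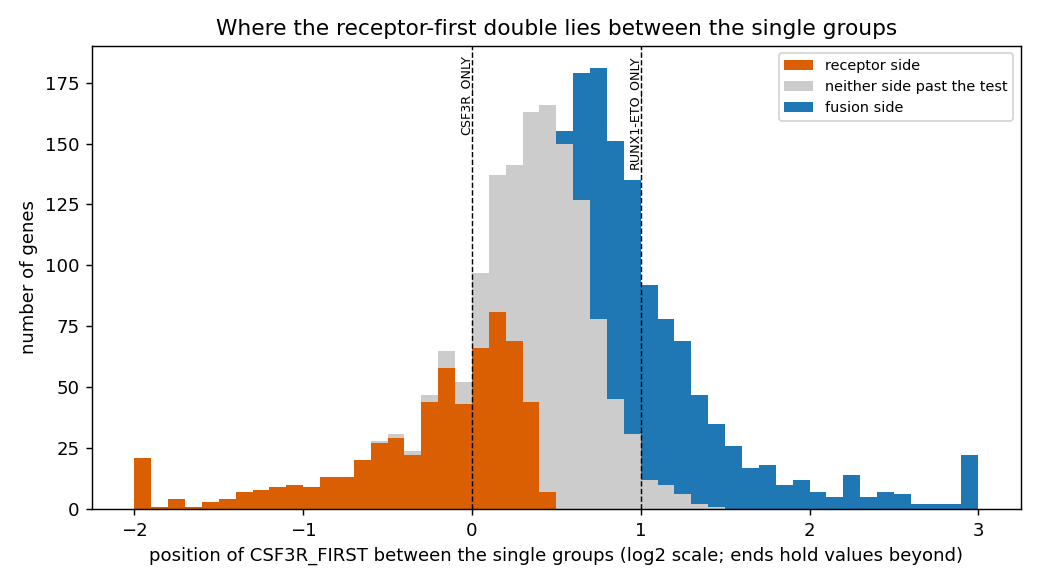
Number of genes by position of CSF3R_FIRST between CSF3R_ONLY (0) and RUNX1-ETO_ONLY (1) on the log2 scale, for 2351 genes at least 2-fold different between the single groups, with values beyond the axis placed in the end bins. Colours give the side called by the midpoint test, and the median is 0.56.

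Thbs1 and Ngp were near the low fusion level in the double. Thbs1, the matrix protein thrombospondin 1, read 1961, 2056 and 1189 CPM in EMPTY, 67.68, 66.29 and 61.06 in RUNX1-ETO_ONLY, 1355, 1415 and 1413 in CSF3R_ONLY and 68.97, 63.61 and 54.41 in CSF3R_FIRST. The double overlapped the fusion-only libraries, and the effects were not shown to depart from a sum (interaction 0.25, SE 0.253, adjusted p = 0.504). Ngp, a neutrophil granule protein, averaged 309, 66.0, 1706 and 74.8 CPM. Its rise with the receptor alone did not appear beside the fusion, and its interaction was −2.28 (SE 0.205, adjusted p = 1.2e-06).

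Mgl2, a lectin of macrophages and dendritic cells, was at the high fusion level in the double, with 1.817, 2.165 and 1.918 CPM in EMPTY, 36.79, 39.07 and 41.95 in RUNX1-ETO_ONLY, 1.924, 1.794 and 2.306 in CSF3R_ONLY and 38.3, 37.94 and 39.69 in CSF3R_FIRST. CSF3R_ONLY overlapped EMPTY, and the double overlapped RUNX1-ETO_ONLY. With the receptor alone at the EMPTY level, additive effects would also place the double there. Rhou, a small GTPase, averaged 36.3, 2.22, 53.5 and 4.11 CPM and lay on the fusion side at the low end.

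On the receptor side, Tgfbi, a matrix protein induced by TGF-beta, read 12.44, 13.94 and 11.45 CPM in EMPTY, 5.708, 5.083 and 6.284 in RUNX1-ETO_ONLY, 144.6, 145.3 and 141.2 in CSF3R_ONLY and 246.2, 243.6 and 222.9 in CSF3R_FIRST. The double was above the receptor-only level with no overlap. Dmxl2, a subunit of the rabconnectin complex, averaged 16.5, 13.8, 147 and 133 CPM, and the double overlapped the receptor-only libraries. Pirb, an inhibitory receptor of myeloid cells, averaged 3.30, 11.4, 141 and 195 CPM, Casp4, an inflammatory caspase, 8.17, 3.42, 42.2 and 34.6, and Inhba, the activin A subunit, 4.44, 1.82, 27.3 and 19.8. All of these kept most or all of the receptor-only level although the fusion alone left them low.

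Gene lists describe the same pattern by function. Percentages are of tested members, against 10.4% above and 12.5% below over all genes. Differing genes are those at least 2-fold different between the single groups. Of all 2351 of these, 34.7% lay nearer the fusion and 26.1% nearer the receptor. The lists were chosen with earlier results of these data known, so their counts are descriptions.

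**Figure D4:**
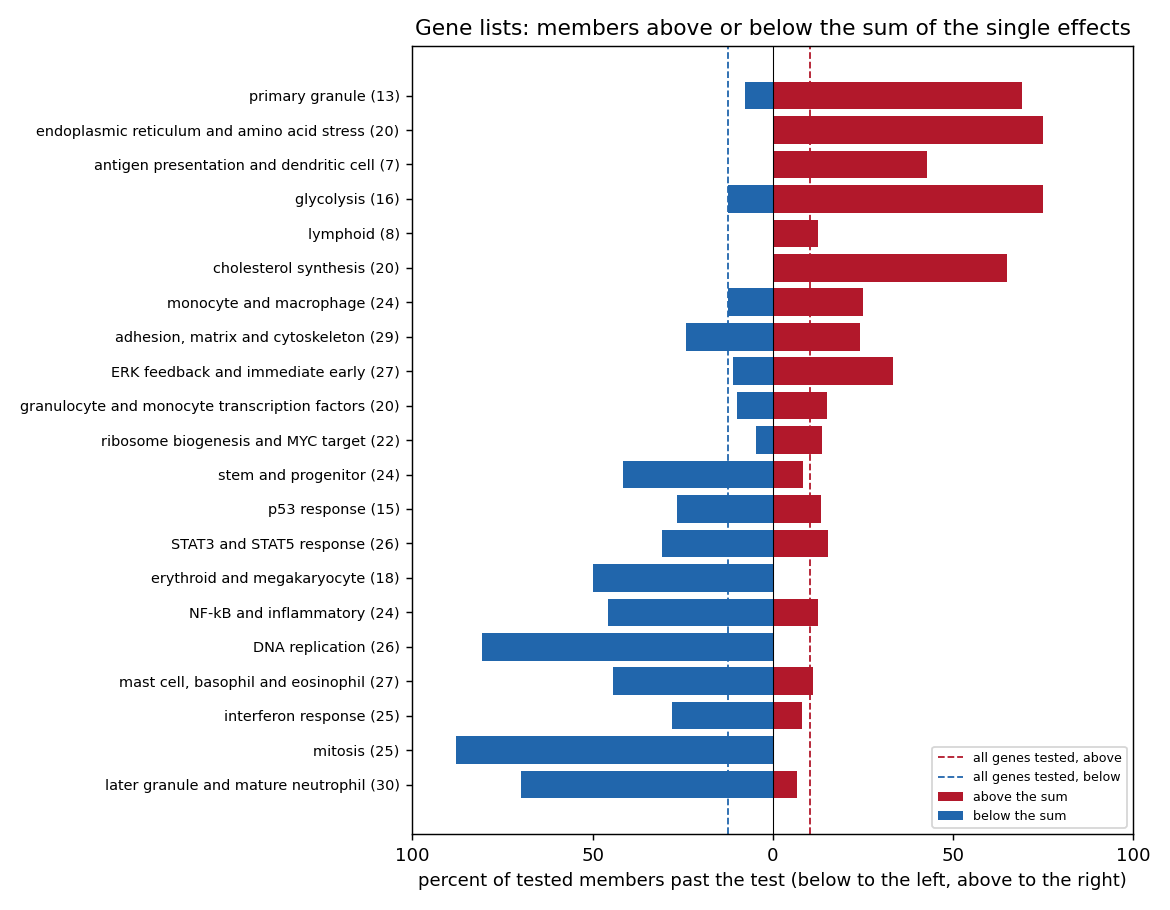
Percent of tested members of each gene list above the sum (right) and below it (left), with the number tested in brackets and dashed lines for all genes tested (10.4% above, 12.5% below). Mitosis, DNA replication and later granule genes reach furthest to the left, and glycolysis and endoplasmic reticulum stress furthest to the right.

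The later granule and primary granule lists went different ways. Of 30 later granule and mature neutrophil genes, 2 were above the sum and 21 (70%) below, with a median interaction of −1.75. The receptor alone raised 27 of the 30 (all genes: 19.9%). Of the 27 that differed at least 2-fold between the single groups, 13 lay nearer the fusion and 4 nearer the receptor (all differing genes: 34.7% and 26.1%). The mean log2 level of the list, relative to EMPTY, was 2.10, 2.14 and 2.08 in the CSF3R_ONLY libraries and 0.58, 0.65 and 0.76 in CSF3R_FIRST, which do not overlap. Of 13 tested genes in the primary granule list, 9 were above the sum and 1 below (median 0.69). Primary granules form at the promyelocyte stage, but the list is broader than their proteins. Calr, Gstm1 and Hp, which are not primary granule proteins, were among those above the sum (0.89, 0.91 and 0.69). Ctsg, the protease cathepsin G, averaged 3110, 1894, 2736 and 3798 CPM (interaction 1.19, SE 0.175). Elane, neutrophil elastase, averaged 1917, 200, 1444 and 303 CPM (1.01), and Mpo, myeloperoxidase, was not past the test (0.26, SE 0.125, adjusted p = 0.153), although it was past it without the 3 libraries low in long transcripts (0.33).

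Most mast cell, basophil and eosinophil genes were higher in the double than with either allele alone. Of 27, 19 were above both single groups (70.4%, against 13.2% of all genes), while 12 were below the log2 sum, 3 above it and 12 not past the test. The median interaction was −0.59, or −0.12 with groups averaging under 3 counts per library raised to that level. Cpa3, the mast cell carboxypeptidase, averaged 985, 9430, 1836 and 16230 CPM and was not shown to depart from a sum (−0.12, SE 0.226, adjusted p = 0.753). It was below the sum without the 3 libraries low in long transcripts (−0.41). Mcpt4, a chymase, averaged 0.0400, 48.5, 32.3 and 698 CPM.

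Monocyte and macrophage genes leaned to the receptor, with 11 of 17 differing genes nearer the receptor and 2 nearer the fusion. Over all differing genes the shares were 26.1% and 34.7%. Of the 24 tested, 6 were above the sum and 3 below. F13a1, coagulation factor XIII A, averaged 777, 107, 1123 and 413 CPM, with an interaction of 1.41 but a CPM difference of −41.2. Irf8, a transcription factor of the monocyte and dendritic lineages, averaged 9.96, 23.7, 0.927 and 7.61 CPM (interaction 1.78, CPM difference −7.02). Cd300lf, an inhibitory receptor, was below the sum (−1.34). Of 7 tested antigen presentation genes, 3 were above the sum, among them H2-Ab1, a class II chain, at 4.58, 1.13, 0.715 and 8.04 CPM. Id2, which antagonises E proteins, averaged 10.5, 13.4, 37.4 and 180 CPM.

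Of 18 erythroid and megakaryocyte genes, Gfi1b among them, 9 were below the sum and 0 above by edgeR (2 above at an unadjusted p under 0.05, and 2 by DESeq2). Of 24 stem and progenitor genes, 10 were below and 2 above. Eng, the TGF-beta co-receptor endoglin, averaged 0.543, 103, 1.06 and 14.2 CPM, so that the receptor-first double held less than the fusion alone.

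Signalling lists were mixed. Of 26 STAT3 and STAT5 response genes, 8 were below and 4 above, and 16 were below with library sizes alone and 5 without CSF3R_FIRST replicate 3. Socs2, a feedback inhibitor, was above the sum at 3.66, 1.03, 1.20 and 3.32 CPM (interaction 3.28, SE 0.391), and the kinase Pim1 was not past the test (−0.24, SE 0.092, adjusted p = 0.0747). Pim1 was called below the sum by DESeq2 (−0.21) and with library sizes alone (−0.40). Of 27 ERK feedback and immediate early genes, 9 were above and 3 below, and 10 of 14 differing genes lay nearer the fusion (all differing genes: 34.7%). Egr1, an immediate early factor, averaged 14.6, 213, 110 and 333 CPM, below the log2 sum (−2.27) and 24.9 CPM above the CPM sum. Of 24 NF-kB and inflammatory genes, 11 were below and 3 above, while 12 were above both single groups (50%, against 13.2% of all genes). Ccl2, a monocyte chemokine, averaged 0.0200, 16.8, 4.69 and 66.2 CPM. Of 25 interferon response genes, 7 were below and 2 above.

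Most proliferation genes were below the sum. Of 26 DNA replication genes, 21 were below and 0 above (median −0.58), and 22 were below both single groups (84.6%, against 9.39% of all genes). Of 25 mitosis genes, 22 were below and 0 above (median −0.72), and 23 were below both. The mean log2 level of the replication list was −0.01, −0.05 and −0.02 in RUNX1-ETO_ONLY, −0.03, −0.03 and −0.01 in CSF3R_ONLY and −0.64, −0.63 and −0.67 in CSF3R_FIRST. With either allele alone that mean stayed near EMPTY, the furthest library being RUNX1-ETO_ONLY replicate 2 at −0.052, and the double was lower in each library. The mitosis list went otherwise with the receptor alone, at 0.27, 0.25 and 0.26 in CSF3R_ONLY, where 11 of its 25 genes rose, against −0.10, −0.08 and −0.07 in RUNX1-ETO_ONLY and −0.54, −0.54 and −0.59 in CSF3R_FIRST. Nusap1, a spindle protein, read 80.6, 79.17 and 76.65 CPM in EMPTY, 92.45, 88.42 and 91.07 in RUNX1-ETO_ONLY, 131.3, 118.8 and 126.1 in CSF3R_ONLY and 63.67, 61.08 and 65.69 in CSF3R_FIRST. Both alleles alone were above EMPTY and the double below it, with an interaction of −1.18 (SE 0.090, adjusted p = 2.18e-07). Lig1, the replicative DNA ligase, averaged 184, 222, 223 and 131 CPM (−1.04, SE 0.130), and Rrm1, a ribonucleotide reductase subunit, 308, 328, 368 and 201 (−0.96, SE 0.121). Mki67, the proliferation marker Ki-67, had −1.60 (adjusted p = 0.017), which was not past the test without the 3 libraries low in long transcripts (−1.30). Without those libraries the list counts were 22 of 26 and 22 of 25. The count above the sum was also 0 in both lists at an unadjusted p under 0.05 and by DESeq2 and limma-voom. In bulk RNA, fewer cycling cells and less transcript per cell cannot be told apart.

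**Figure D5:**
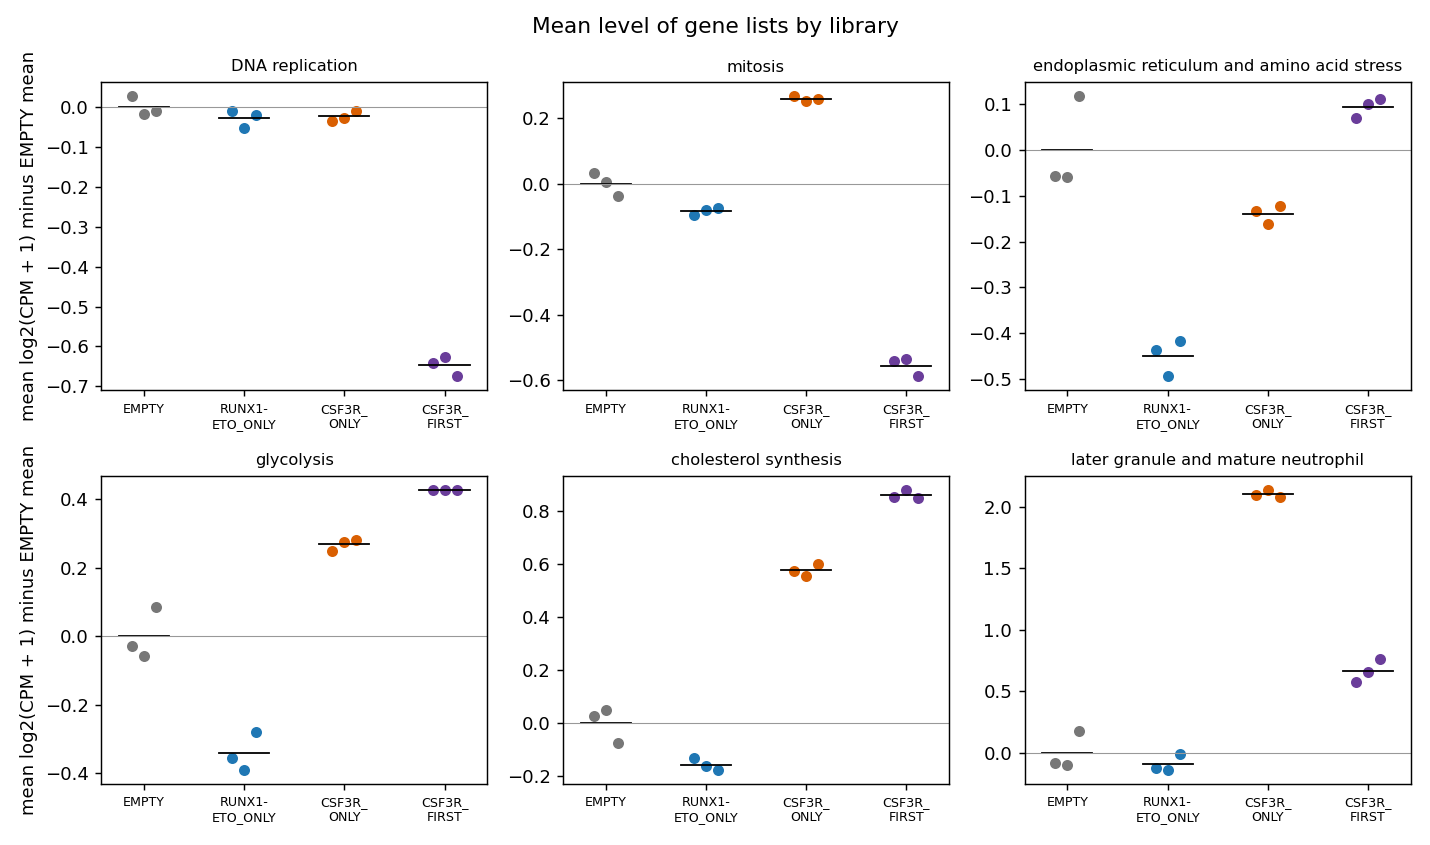
Mean log2(CPM + 1) of 6 gene lists in each library relative to the EMPTY mean (points), with the group mean (short line). The replication and mitosis lists are lower in the 3 double libraries than in any other, and the cholesterol list is higher.

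Metabolic and protein-folding genes lay above the sum. Of 16 glycolysis genes, 12 were above and 2 below (median 0.60), and the fusion alone lowered 12 of them (all genes: 18.2%). Ldha, lactate dehydrogenase, averaged 1897, 1477, 2110 and 2955 CPM (0.85, SE 0.163). Of 20 cholesterol synthesis genes, 13 were above and 0 below (median 0.49), though 7 were above with library sizes alone. All 5 that differed between the single groups lay nearer the receptor (all differing genes: 26.1%). Hmgcs1, the synthase that feeds the mevalonate pathway, read 91.44, 88 and 75.45 CPM in EMPTY, 102.9, 93.65 and 94.05 in RUNX1-ETO_ONLY, 129.7, 131.1 and 134.5 in CSF3R_ONLY and 249.2, 266.1 and 252.1 in CSF3R_FIRST. The double had no overlap with any group (interaction 0.77, SE 0.107, adjusted p = 9.45e-05). Of 20 endoplasmic reticulum and amino acid stress genes, 15 were above and 0 below (median 0.67), with the fusion alone lowering 16. The count below the sum was also 0 in this list and the cholesterol list at an unadjusted p under 0.05 and by DESeq2 and limma-voom. Creld2, a folding factor, averaged 67.7, 47.6, 56.4 and 96.6 CPM (1.28, SE 0.137), and Sdf2l1, an ER chaperone partner, 177, 80.9, 148 and 162 CPM. For Sdf2l1 the double was not shown to differ from EMPTY (adjusted p = 0.42).

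Of 15 p53 response genes, 4 were below, 2 above and 9 not past the test. Cdkn1a, the cyclin-dependent kinase inhibitor p21, averaged 175, 172, 310 and 537 CPM (0.82, SE 0.139), while Trp53inp1, a p53-induced protein, was below the sum (−1.22). Of 29 adhesion, matrix and cytoskeleton genes, 7 were above and 7 below, and 11 were above without the 3 libraries low in long transcripts.

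The order of the alleles was tested as CSF3R_FIRST minus RUNX1-ETO_FIRST, which equals the difference of the interactions since the other groups cancel. Among the libraries of this test, CSF3R_FIRST replicate 3 and RUNX1-ETO_FIRST replicate 1 were low in long transcripts (correlation with log2 length −0.575 and −0.637). No order result without them is given here. It was past the test in 2407 genes (18.3%), and in 1282 of the 3004 genes with a receptor-first interaction (42.7%). The 3004 were chosen on the CSF3R_FIRST libraries that the order test also uses. Their share is raised by that choice and cannot be set against 18.3%. With the fusion first, 2078 genes (15.8%) departed from the sum. Of the 26 DNA replication genes, 17 were lower with the receptor first than with the fusion first, and of the 25 mitosis genes, 20 were lower, with 0 higher in either list by edgeR, also at an unadjusted p under 0.05 (all genes: 7.22% lower). Of the 30 later granule genes, 22 were higher with the receptor first and 0 lower, also at an unadjusted p under 0.05 (all genes: 11.1% higher). Tnfrsf8, Gfi1b, Pou2f2 and Lama5 were not shown to differ by order (adjusted p = 0.455, 0.192, 0.938 and 0.898).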

How the data were processed

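Per the labels, strand-specific mRNA libraries were made from total RNA of 15 samples, and what the authors deposited is 1 table of unnormalized counts with a row for each gene symbol. Trimmomatic, STAR, DESeq2 and mm10 appear in the submitters' processing notes, with no versions or roles. No source used here states the counting program, strand setting or treatment of shared reads, so paralogs such as the mast cell proteases are less certain. From the counts, the entry naming no gene (0.0179% to 0.0305% of a library) was dropped. edgeR 4.0.16 was used in R 4.3.3 with filterByExpr, TMM, 5 group means over all 15 libraries (10 residual degrees of freedom), robust quasi-likelihood F tests and Benjamini-Hochberg adjustment over 13123 genes, two-sided at 0.05. SE is on the log2 scale. Where a floor was used, groups averaging under 3 counts per library were raised to that level, which covers counting error only. Positions are from GENCODE on mm10.

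Members and lists were chosen with earlier results of these data known. Eligible names were the allele genes and the 12 largest interactions in each direction with mean log2 CPM of at least 3 and 10 counts in every library. Also eligible were 5 with fewer counts, 6 above and 6 below both, and up to 3 past and 1 not past the test per list. A further 8 per side had the largest difference between the single groups, among genes with a position within 0.25 of a single group. Of the 12 below the sum, 1 gene is not reported here. Alternatives were other scalings, filters, group sets, DESeq2 1.42.0, limma-voom 3.58.1, a replicate block, the linear scale and each library left out. In simulated data with 12813 genes, this interaction test recovered 20.9% of genes at 1.5-fold, 80.6% at 2-fold and 100% at 4-fold, and 7 of 141 calls were false. There 67, 67 and 66 genes were changed at these folds, drawn from genes with higher counts, and no other gene differed between groups. Far more genes were called in the data, so these rates do not carry over to it.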

Additional observations from a re-analysis of the deposited data

Results flagged for a closer look

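Of the 23 genes reported here with the largest receptor-first interactions, 14 had an interaction that differed between the orders of the alleles, by the edgeR test of that difference over all genes (18.3% of tested genes passed it). The 23 were chosen on the CSF3R_FIRST libraries, which the order test also uses, so 14 of 23 cannot be set against 18.3%. That test includes CSF3R_FIRST replicate 3 and RUNX1-ETO_FIRST replicate 1, which were low in long transcripts. For genes above the sum, the receptor-first interaction was higher by 2.19 in Col5a3 (4.21 against 2.02, adjusted p = 2.59e-07), 0.50 in Fgf11, 1.10 in Nucb2, 0.98 in Tdrd5, 1.18 in Col18a1, 1.26 in Serpine2 and 0.67 in Stc2. For genes below the sum it was less negative by 1.07 in Cybb (−4.16 against −5.23), 1.84 in Cma1 (−4.08 against −5.92), 1.15 in Ltf, 1.70 in Mmp8 and 1.42 in Stfa2. It was more negative in Homer2 (difference −0.40) and Slc22a3 (−1.91, from −1.19 to −3.10, adjusted p = 1.59e-09).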

How the results depend on the processing

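The counts of called genes were recomputed under each alternative. With library sizes alone, genes below the sum numbered 2725 and genes below both single groups 2143. Besides the 3 libraries named above, RUNX1-ETO_FIRST replicate 1 was low in long transcripts (correlation −0.637). Without these 4 libraries low in long transcripts, an alternative chosen after seeing the data, 2181 genes were above the sum. Requiring a 2-fold interaction left 1176 genes, 563 above and 613 below. Without a 2-fold minimum between the single groups, 6043 genes differed, with 1721 nearer the fusion, 1696 nearer the receptor and 2626 on neither side. Leaving out each library in turn gave 2466 to 3174 called genes, 1113 to 1635 above the sum, 1201 to 1706 below it, 2321 to 2459 differing between the single groups, 730 to 883 nearer the fusion, 559 to 662 nearer the receptor, 914 to 1120 on neither side, 1584 to 2169 above both and 835 to 1445 below both. The cause was not tested.

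The Runx1 interaction, not past the test, changed sign once the 3 libraries low in long transcripts (0.075) or all 4 (0.072) were left out, and ran from −0.120 to 0.065 with single libraries left out (above 0 without replicate 3 of CSF3R_FIRST or of EMPTY). The Cpa3 interaction ran from −0.329 to 0.0098, above 0 without EMPTY replicate 2. On the linear CPM scale the sign turned for Serpine2 (−99.8 CPM), Cma1 (2738), Adgrg6 (27.2), Mcpt4 (618), Irf8 (−7.02), F13a1 (−41.2), Egr1 (24.9) and Ccl2 (44.7). Elane and Mki67 were not past the test without a count filter (adjusted p = 0.0517 and 0.108). Pim1 was past it without the 4 libraries low in long transcripts (−0.22).

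Replicate numbers were not taken to pair the libraries, since 10 of 18 same-numbered pairs, not every one, correlated above 0.1 (−0.205 to 0.829). All 9 such pairs among EMPTY, RUNX1-ETO_ONLY and CSF3R_FIRST did (0.281 to 0.829), and 1 of 9 with CSF3R_ONLY. Of 36 different-numbered pairs, 13 did too (−0.764 to 0.613), among them CSF3R_FIRST replicate 1 with EMPTY replicate 2 (0.613). A structure shared among those 3 groups is thus present in the deviations, and replicate number alone does not describe it. With a replicate block 3222 genes were called, 2936 of them shared with the fit without it. DESeq2 called 3390 genes and limma-voom 3092. Departures near 1.5-fold were mostly missed in simulation. The simulation changed far fewer genes than were called in the data, so that rate does not carry over.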
